A study of Mus musculus with 8 samples.

Results

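The genes described here build and load major histocompatibility complex (MHC) class I molecules: B2m, H2-K1, H2-D1, H2-T23, Tap1, Tap2, Tapbp, Nlrc5, Erap1 and Calr. They were taken as all probe sets whose only gene symbol in the platform annotation is 1 of these 10 names. The rule gave 28 of the 45037 probe sets that are not controls, and they cover 9 of the 10 genes. H2-D1 has 9 probe sets, H2-K1 and Tap1 have 4 each, Calr has 3, B2m, Tapbp and Erap1 have 2 each, and Tap2 and Nlrc5 have 1 each. The 2 probe sets that carry H2-T23 also carry a second symbol, so H2-T23 has no probe set under this rule and no value is given for it. The annotation names 18193 genes by a probe set of their own. Of the 28 probe sets, 25 were tested, those whose signal passed 59.0, the median over all arrays, on 2 arrays or more.

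RNA was measured on 8 mouse arrays, 2 each, named A and B, of Aire knockout spleen, Aire wild-type spleen, Aire knockout lymph node and Aire wild-type lymph node. Aire, the autoimmune regulator, lets thymic cells show antigens of other tissues, and by its title the series is about cells with Aire outside the thymus. The labels call the groups spleen or lymph node, Aire-knockout or wild-type, and say nothing of the allele, strain, age, cell isolation, pooling of animals or what A and B mark. P-values therefore measure only the spread between these samples. That spread is not only technical, since sex-linked transcripts, given below, differed between A and B in every group. In samples of mixed cells, fewer cells of a type and less RNA per cell cannot be told apart.

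MHC class I molecules show peptides made inside a cell to CD8 T cells. A heavy chain such as H2-K1 or H2-D1 folds with beta-2 microglobulin (B2m) in the endoplasmic reticulum, where calreticulin (Calr) and tapasin (Tapbp) hold it in the loading complex. The Tap1 and Tap2 proteins form the pump that brings peptides in from the cytosol, and Erap1 trims them. Nlrc5 is the transactivator that drives transcription of class I genes, and interferons raise most of these genes. Dendritic cells, the main presenting cells of spleen and lymph node, carry these genes at high levels.

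Promoters are shown for the chains of the class I molecule itself, H2-K1, H2-D1 and B2m, and for Tap1 and Calr, whose patterns over the arrays are described at most length. The windows come from RefSeq on build GRCm38.p6 and hold 300 bases, 250 before the transcription start. Of the 9 genes with a probe set, 7 were matched to a window. Capitals mark matches on either strand to 5 motifs. They are the kappaB core GGGATTCCC, the interferon response element core TTTCNNTT, the CCAAT box, the cyclic AMP response element core TGACG, and the endoplasmic reticulum stress element, which is a CCAAT box, 9 free bases and CCACG. In Calr a CCAAT box lies inside the stress element, and another overlaps an interferon element core.
H2-K1 (chr17:34000298-34000597, minus strand): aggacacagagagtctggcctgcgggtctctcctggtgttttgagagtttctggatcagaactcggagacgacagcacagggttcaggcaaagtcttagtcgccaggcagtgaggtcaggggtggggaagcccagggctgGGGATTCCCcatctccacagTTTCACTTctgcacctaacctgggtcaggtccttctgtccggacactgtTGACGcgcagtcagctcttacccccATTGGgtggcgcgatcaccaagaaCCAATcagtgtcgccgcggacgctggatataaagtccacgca
H2-D1 (chr17:35262844-35263143, plus strand): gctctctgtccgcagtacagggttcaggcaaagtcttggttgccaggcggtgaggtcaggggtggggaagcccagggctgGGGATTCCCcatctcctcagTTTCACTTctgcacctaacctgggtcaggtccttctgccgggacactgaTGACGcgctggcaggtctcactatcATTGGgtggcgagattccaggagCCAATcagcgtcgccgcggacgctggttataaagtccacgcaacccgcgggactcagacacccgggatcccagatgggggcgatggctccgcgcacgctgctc
B2m (chr2:122147437-122147736, plus strand): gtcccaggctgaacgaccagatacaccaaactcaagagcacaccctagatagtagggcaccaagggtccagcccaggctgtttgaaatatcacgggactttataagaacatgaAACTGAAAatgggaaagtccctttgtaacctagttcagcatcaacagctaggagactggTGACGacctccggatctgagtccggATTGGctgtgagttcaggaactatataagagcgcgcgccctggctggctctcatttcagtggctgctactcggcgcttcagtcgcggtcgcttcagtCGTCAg
Tap1 (chr17:34187306-34187605, plus strand): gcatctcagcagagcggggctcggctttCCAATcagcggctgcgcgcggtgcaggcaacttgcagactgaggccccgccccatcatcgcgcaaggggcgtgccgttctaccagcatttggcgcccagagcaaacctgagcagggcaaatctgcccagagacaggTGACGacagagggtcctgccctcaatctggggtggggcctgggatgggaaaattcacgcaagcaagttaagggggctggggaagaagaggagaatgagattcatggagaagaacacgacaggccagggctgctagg
Calr (chr8:84846882-84847181, minus strand): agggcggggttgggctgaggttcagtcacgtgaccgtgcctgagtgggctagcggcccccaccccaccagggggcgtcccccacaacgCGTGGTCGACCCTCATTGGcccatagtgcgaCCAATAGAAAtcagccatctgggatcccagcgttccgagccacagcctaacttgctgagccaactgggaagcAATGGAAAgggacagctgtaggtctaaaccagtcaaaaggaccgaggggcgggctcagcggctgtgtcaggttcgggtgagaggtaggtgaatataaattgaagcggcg

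The kappaB core was found in the H2-K1 and H2-D1 windows and in 0.353% of all 32851 windows of this length. The stress element was found in the Calr window and in 0.119% of all windows. The interferon element core was found for H2-K1, H2-D1, B2m, Calr and Erap1, but it is common, at 23.9% of all windows. A CCAAT box lies in all 5 windows shown and in 37.4% of all, and TGACG lies in 4 of them, Calr being without it, and in 20.8%. The Tap1 window shares 275 bases with that of the proteasome gene Psmb9 on the opposite strand. A match describes these letters and is not evidence of binding.

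The arrays were checked against their labels first. Signals here are deposited MAS5 values after each array was scaled to the common median, on a linear scale with no unit. Aire had signals of 1009 and 2376 in knockout spleen, against 5037 and 5204 in wild-type spleen. It had 791 and 1137 in knockout lymph node, against 3052 and 3535 in wild-type lymph node. The averaged difference was -1.76 ± 0.33 (SE) on the log2 scale (limma adjusted p = 0.319). The labels do not say which part of Aire was deleted, so this probe set cannot test the deletion itself. The 7 measured conventional dendritic cell markers summed to 11624 to 19590.5 per array. The 5 B cell markers summed to 236 to 1715 and the 6 T cell markers to 537 to 2105. The 6 epithelial markers summed to 1086 to 4264, with Epcam at 428 to 2468 but Cldn4 at 0.668 to 20.6. Both knockout A arrays differed from the rest in summed macrophage markers, which are given below beside the results they move with. The spleen transcription factors Tlx1 and Nkx2-5 lay under the pooled median on all 8 arrays. Nkx2-3, another spleen factor, had 54.3 to 104 in spleen and 52.7 to 66.5 in lymph node. Spic, the red pulp macrophage factor, had 1238 to 2443 in spleen and 634 to 1544 in lymph node. The lymph node vessel gene Glycam1 had 839 in knockout lymph node A and 409 in wild-type spleen B, and 52.6 to 105 elsewhere.

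The A and B arrays also differed in sex-linked transcripts. Xist, the RNA of the inactive X chromosome in female cells, had 5527 and 14.6 in knockout spleen, against 7624 and 4585 in wild-type spleen for its brightest probe set. It had 6355 and 23.1 in knockout lymph node, against 7089.9 and 3565 in wild-type lymph node. Eif2s3y, a Y-linked gene of male cells, had 1116 and 1968 in knockout spleen, against 21.2 and 1749 in wild-type spleen. It had 521 and 1988 in knockout lymph node, against 3.80 and 1692 in wild-type lymph node. Both knockout B arrays were thus low in Xist and both wild-type A arrays low in Eif2s3y, while the other 4 arrays carried both transcripts. By these markers those 4 arrays held RNA of both female and male cells. An array is therefore not counted here as an individual animal, and whether animals were pooled was not tested. The pattern of each letter within a genotype was the same in spleen and lymph node, but the labels do not say whether those arrays share animals. Sex make-up was uneven between the letters and between the genotypes, and its part in the class I values was not tested.

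For the genes whose proteins form the class I molecule, no genotype difference in RNA signal passed the test. The signals of the brightest probe set of each gene stayed within a narrow range over all 8 arrays. B2m, the shared light chain, had signals of 15699 and 18482 in knockout spleen, against 16372 and 17138 in wild-type spleen (probe set 1449289_a_at). It had 14460.4 and 15825 in knockout lymph node, against 15069 and 19587 in wild-type lymph node. The lowest of the 8 values is that of knockout lymph node A and the highest that of wild-type lymph node B, and the genotypes overlap in both tissues. The difference averaged over tissues, knockout minus wild-type on the log2 scale, was -0.080 ± 0.23 (SE), with a 95% interval from -0.63 to 0.47 (limma adjusted p = 0.969). For the second B2m probe set, 1452428_a_at, the knockout arrays lay below the wild-type arrays in both tissues, at an averaged -0.17 ± 0.23 (limma adjusted p = 0.92, exact two-sided permutation p = 0.0556, the smallest that 36 assignments within tissue allow). Those assignments take the spleen and lymph node arrays as independent.

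H2-K1, a classical heavy chain, had 10804 and 11772 in knockout spleen, against 11620.3 and 12428 in wild-type spleen for its brightest probe set. It had 9426 and 11372 in knockout lymph node, against 10731 and 13851 in wild-type lymph node. The averaged difference was -0.16 ± 0.23 (limma adjusted p = 0.928), and its interval ran from -0.72 to 0.39. H2-D1, the other classical heavy chain, had 9354 and 10067 in knockout spleen, against 9517 and 10155 in wild-type spleen. It had 8571 and 9278 in knockout lymph node, against 8684 and 11702 in wild-type lymph node, with an averaged difference of -0.10 ± 0.23 (limma adjusted p = 0.961). In both genes wild-type lymph node B is the highest array and knockout lymph node A the lowest.

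The heavy chain probe sets did not all behave alike. Names ending in _x_at mark probes that also match other sequences, and 11 of the 13 H2-K1 and H2-D1 probe sets end so. Signal from near-identical class I genes can be split or shared among them, and the 2 genes cannot be told apart there. For 1426324_at, an H2-D1 probe set without that mark, the signals were 7588 and 7523 in knockout spleen, against 8258 and 8687 in wild-type spleen. They were 7566 and 8006 in knockout lymph node, against 8405 and 10270.4 in wild-type lymph node, so knockout lay below wild-type in both tissues (averaged -0.21 ± 0.22, limma adjusted p = 0.889). The dim H2-D1 probe set 1452544_x_at had 60.0 and 78.7 in knockout lymph node, against 5.77 and 37.9 in wild-type lymph node. Its lymph node difference was 1.85 ± 0.88 with 1 array under the floor of 9.58 (limma adjusted p = 1), and its spleen difference was -0.27 ± 0.88. The dim H2-K1 probe set 1450534_x_at ranged from 58.0 to 170.2, with its 2 lowest values on the knockout A arrays. The H2-D1 probe set 1451934_at did not pass the filter, with signals from 0.588 to 41.1.

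**Figure D1:**
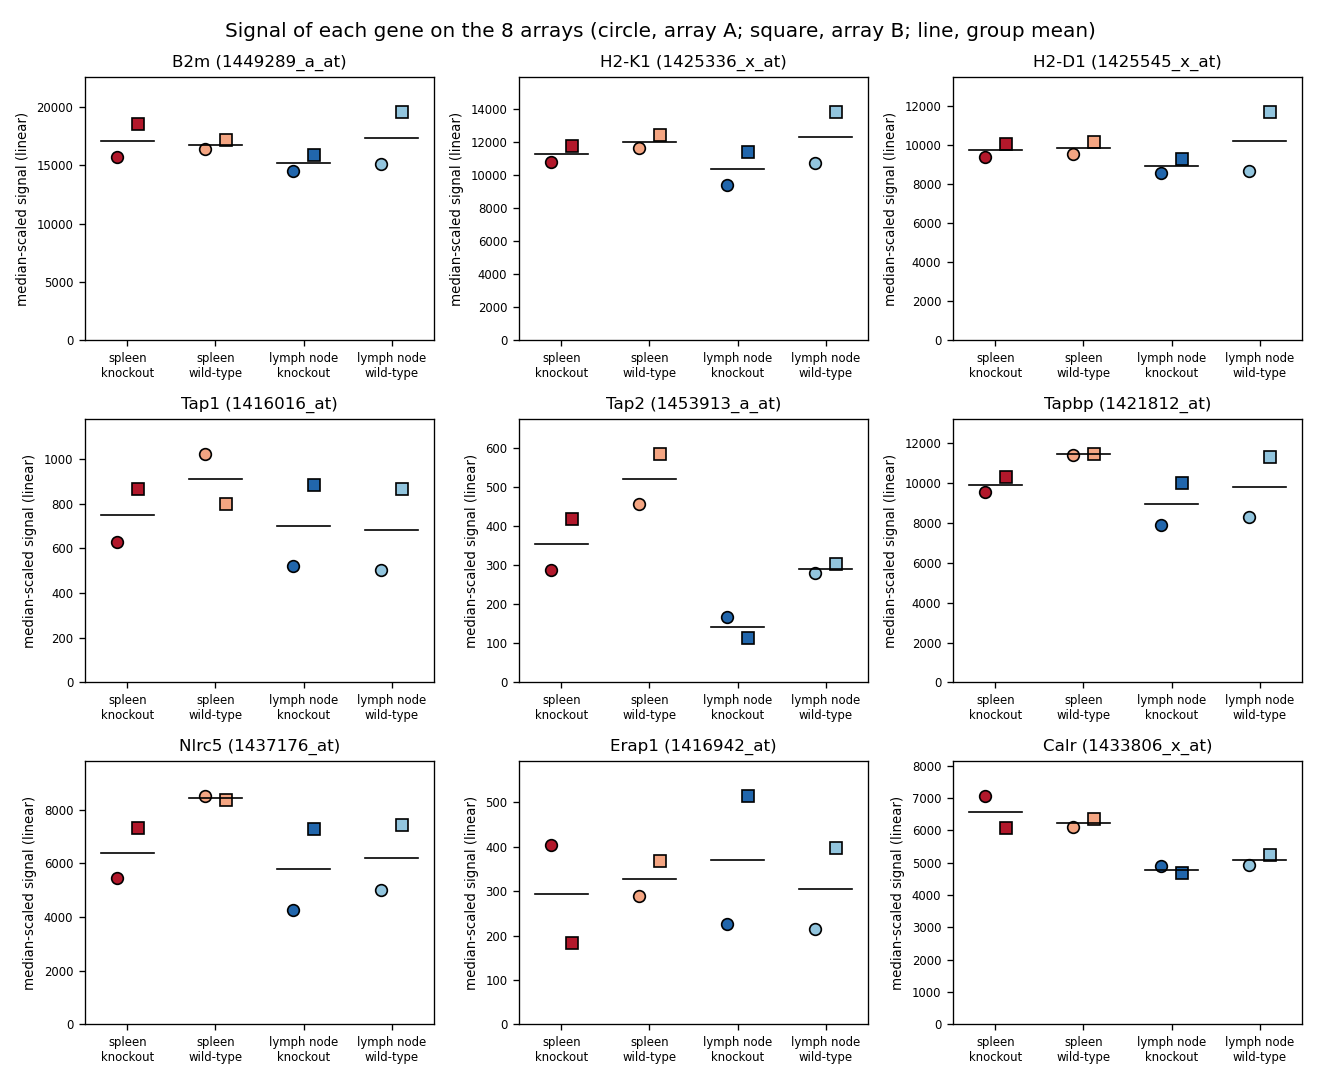
Median-scaled signal (y axis, linear, from 0) of the brightest probe set of each of the 9 genes in the 4 groups (x axis); circles are arrays A, squares arrays B and lines group means. Tap2 is lower in knockout than in wild-type in both tissues, and Calr is higher in spleen than in lymph node.

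Of the peptide pump, the Tap2 subunit gave the largest genotype difference among the brightest probe sets of the 9 genes, and it is the only tested probe set of the 25 with an unadjusted p under 0.05 in any of the 5 comparisons. Tap2 had signals of 288 and 418 in knockout spleen, against 456 and 585 in wild-type spleen. It had 166 and 115 in knockout lymph node, against 280.3 and 302 in wild-type lymph node. The genotypes do not overlap in either tissue. Its means were 353 ± 92.3 in knockout spleen and 520.4 ± 91.1 in wild-type spleen, and 141 ± 36.5 in knockout lymph node and 291 ± 15.2 in wild-type lymph node (SD, n = 2 arrays each). The knockout minus wild-type difference on the log2 scale was -0.57 ± 0.38 (SE) in spleen and -1.07 ± 0.38 in lymph node. Averaged over tissues it was -0.82 ± 0.27, a 1.77-fold lower level, with an interval from -1.46 to -0.19. The unadjusted limma p for the average was 0.0179, and over all 26480 probe sets tested the adjusted p was 0.606, so Tap2 did not pass. The exact two-sided permutation p was 0.0556, the smallest these arrays can give if all are independent. The smallest possible value is larger if spleen and lymph node arrays of 1 letter and genotype share animals, which the labels do not say. The effect was not shown to differ between the tissues (difference 0.50 ± 0.54, limma adjusted p = 1).

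Tap1, the partner subunit, showed no such separation. It had 630.0 and 865 in knockout spleen, against 1024 and 799 in wild-type spleen. It had 520.0 and 882 in knockout lymph node, against 501 and 866 in wild-type lymph node. In lymph node the A arrays of both genotypes lie together at the low end and the B arrays together at the high end, so the genotypes overlap. The averaged difference was -0.13 ± 0.32 (limma adjusted p = 0.964), with an interval from -0.88 to 0.62. It was 0.18 with both knockout A arrays left out. The other 3 Tap1 probe sets were dim, with no signal above 78.1, and 1 of them, 1420274_at, lay under the floor on all 8 arrays. The second subunit has only 1 probe set, so Tap2 could not be checked by another.

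The chaperones of the loading complex were bright. Tapasin (Tapbp), which bridges the heavy chain to the pump, had 9529 and 10296 in knockout spleen, against 11382 and 11472 in wild-type spleen for its brightest probe set. It had 7883 and 9984 in knockout lymph node, against 8289 and 11279 in wild-type lymph node. Knockout lay below wild-type in spleen and overlapped it in lymph node, and the averaged difference was -0.17 ± 0.24 (limma adjusted p = 0.932). Calr, which holds newly made glycoproteins including class I heavy chains, had 7073 and 6074 in knockout spleen, against 6112 and 6351 in wild-type spleen. It had 4886 and 4682 in knockout lymph node, against 4936 and 5243 in wild-type lymph node. Its averaged genotype difference was -0.0079 ± 0.22 (limma adjusted p = 0.997), with an interval from -0.53 to 0.51, and that of the other 2 Calr probe sets was -0.048 and 0.059. In lymph node the knockout arrays lay below the wild-type arrays, without overlap, for this probe set (-0.089 ± 0.31) and for 1456170_x_at (-0.086 ± 0.31), but not for 1417606_a_at (0.11 ± 0.32).

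Nlrc5, the transactivator of class I genes, had 5452 and 7302 in knockout spleen, against 8523 and 8356 in wild-type spleen. It had 4275 and 7286 in knockout lymph node, against 4994 and 7429.5 in wild-type lymph node. Both knockout spleen arrays lay below both wild-type spleen arrays, while in lymph node both A arrays were low. The difference was -0.42 ± 0.41 in spleen and -0.13 ± 0.41 in lymph node (limma adjusted p = 0.843 and 1). The average of -0.27 ± 0.29 (limma adjusted p = 0.891) came to 0.025 with both knockout A arrays left out. Erap1, the trimming peptidase, varied widely within groups. It had 404 and 183 in knockout spleen, against 288 and 367 in wild-type spleen, and 225 and 516 in knockout lymph node, against 214 and 396 in wild-type lymph node. Its 2 probe sets disagreed in direction: the knockout difference was -0.26 in spleen and 0.23 in lymph node for 1416942_at, and 0.66 and -1.05 for 1439068_at.

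Across all probe sets of these genes, none passed the limma test at an adjusted p under 0.05 for any of the 5 comparisons, where 0.00755% of all probe sets passed in spleen, 0.0113% in lymph node and 0.0113% for the average, and none between tissues. At an unadjusted p under 0.05 the only lower one was Tap2, in lymph node (1 of 25, against 1.42% of all) and for the average (1 of 25, against 3.93%). In spleen 0 of 25 were lower at that p, against 4.42% of all. None was higher, against 3.48% in spleen, 1.52% in lymph node and 3.25% for the average.

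Knockout arrays lay below wild-type arrays without overlap for 7 of 25 probe sets in spleen, against 23.5% of all, and for 6 of 25 in lymph node, against 15.7%. In both tissues at once this held for 3 of 25, the Tap2, 1452428_a_at (B2m) and 1426324_at (H2-D1) probe sets, against 5.02%. Knockout lay above wild-type without overlap for 0 of 25 in spleen, against 13.0%, and for 1 of 25 in lymph node, against 14.0%. The difference was below 0 for 19 of 25 in spleen, against 58.2% of all, and for 18 of 25 in lymph node, against 53.7%. The 25 include 4 probe sets of H2-K1 and 8 of H2-D1, most of which can share signal, so they are not 25 independent readings. The averaged difference was below 0 for 22 of 25, against 57.5% of all, and its median was -0.16, beside -0.070 over all probe sets tested. The size of this leaning depends on the scaling: it was 17 of 25 without median scaling, where the median of all probe sets in spleen moved by 0.11, and 15 of 25 with quantile normalization, beside 49.5% and 51.9% of all probe sets. With both knockout A arrays left out it was 13 of 25, beside 56.0% of all. The typical interval of the averaged difference for 1 probe set of these genes reached 0.60 to either side, before any adjustment. A difference under about that size could thus not be told from 0. Larger differences could also fail the adjusted test, as did Tap2 at -0.82 (limma adjusted p = 0.606) and Aire at -1.76 (limma adjusted p = 0.319). The smallest difference that the adjusted test could detect was not estimated.

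**Figure D2:**
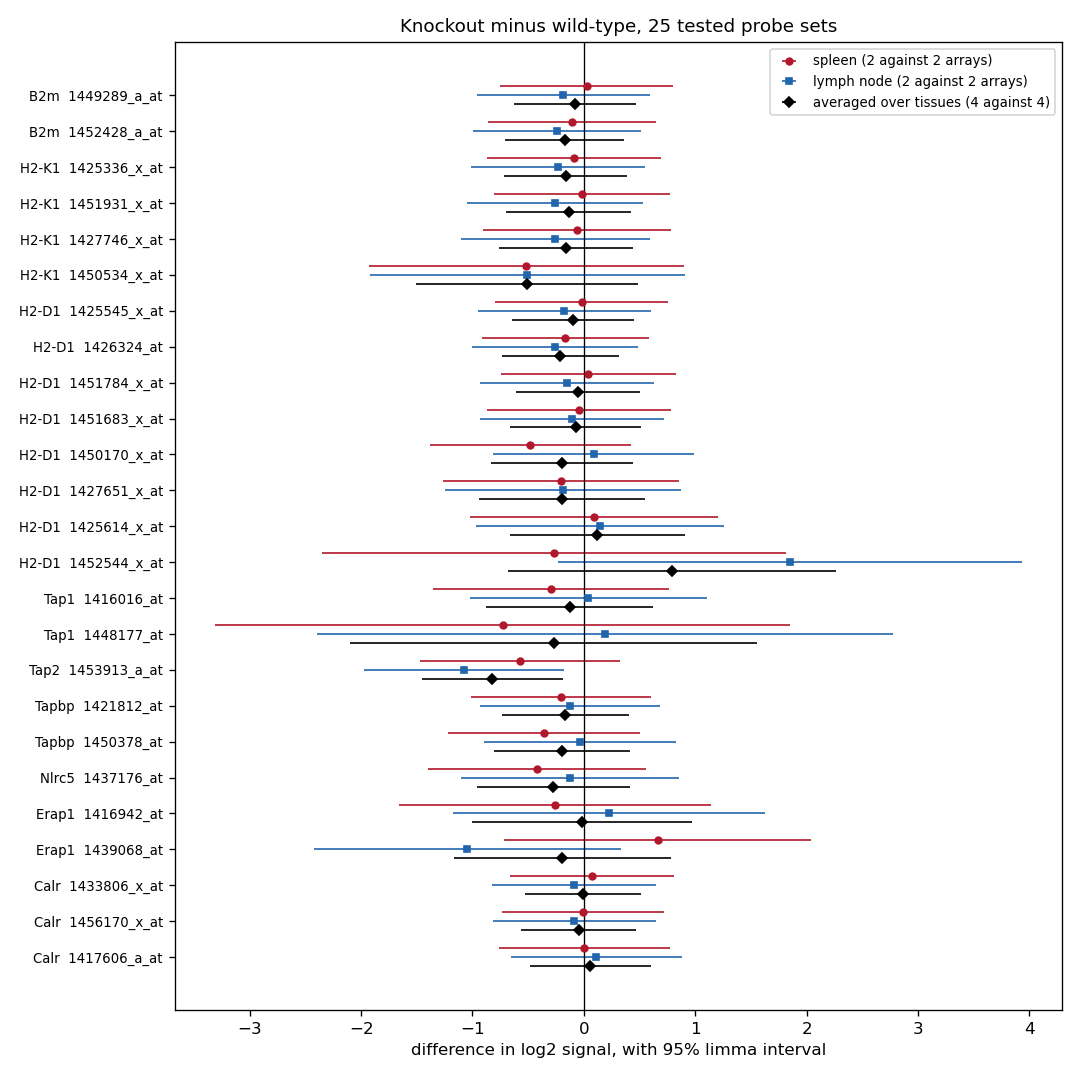
Knockout minus wild-type difference in log2 signal (x axis) for each of the 25 tested probe sets (y axis), in spleen, in lymph node and averaged, with 95% limma intervals. Only the lymph node and averaged intervals of Tap2 stay clear of 0, before adjustment over all probe sets.

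Between the tissues, Tap2 and Calr had higher signals in spleen. Tap2 was 2.11-fold higher in spleen, by 1.08 ± 0.27 averaged over genotypes (unadjusted limma p = 0.00498, limma adjusted p = 0.335, exact two-sided permutation p = 0.0556). It was the only one of the 25 higher at an unadjusted p under 0.05, against 5.39% of all, and 0 of 25 were lower, against 4.20%. The spleen minus lymph node difference in Tap2 was 1.33 among knockout and 0.83 among wild-type arrays. In order of level, knockout lymph node was lowest, then wild-type lymph node, knockout spleen and wild-type spleen. Of these neighbours, wild-type lymph node and knockout spleen overlap, since knockout spleen A had 288 and wild-type lymph node B 302.

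For Calr all 4 spleen arrays lay above all 4 lymph node arrays in each of its 3 probe sets, a pattern found in 3.36% of all probe sets. The 3 probe sets measure 1 gene and are not independent. The brightest, 1433806_x_at, and 1456170_x_at carry the mark of probes that also match other sequences, and 1417606_a_at does not. The differences were 0.37 ± 0.22, 0.39 ± 0.22 and 0.53 ± 0.23 (limma adjusted p = 0.647, 0.626 and 0.531), so none passed. The exact two-sided permutation p was 0.0556 for each, the smallest possible if all arrays are independent. No probe set of the 25 had all spleen arrays below all lymph node arrays, against 1.90% of all. For the last of them, 1417606_a_at, the signals were 3337 and 3682 in knockout spleen, against 3796 and 3217 in wild-type spleen. They were 2505 and 2540.2 in knockout lymph node, against 2597 and 2094 in wild-type lymph node. Calr group means for the brightest probe set were 6574 ± 706 in knockout spleen and 4784 ± 144 in knockout lymph node, and 6232 ± 169 in wild-type spleen and 5089.6 ± 217 in wild-type lymph node (SD, n = 2 each).

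The heavy chains and B2m did not separate by tissue: the spleen minus lymph node difference was 0.067 ± 0.23 for B2m, 0.051 ± 0.23 for H2-K1 and 0.043 ± 0.23 for H2-D1, and each turned below 0 without median scaling and with quantile normalization. Nlrc5 differed by 0.32 ± 0.29, Tap1 by 0.29 ± 0.32, Tapbp by 0.20 ± 0.24 and Erap1 by -0.083 ± 0.42 (limma adjusted p = 0.787, 0.831, 0.851 and 0.97). Over the 25 probe sets the median difference was 0.10, beside 0.048 over all, and 7 of 25 were below 0, against 45.6% of all. For no probe set of these genes did the test find a knockout effect that differed between the tissues (smallest limma adjusted p = 1, 0 of 25 at an unadjusted p under 0.05, where 1.62% of all had a larger value in spleen and 1.94% a smaller one).

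**Figure D3:**
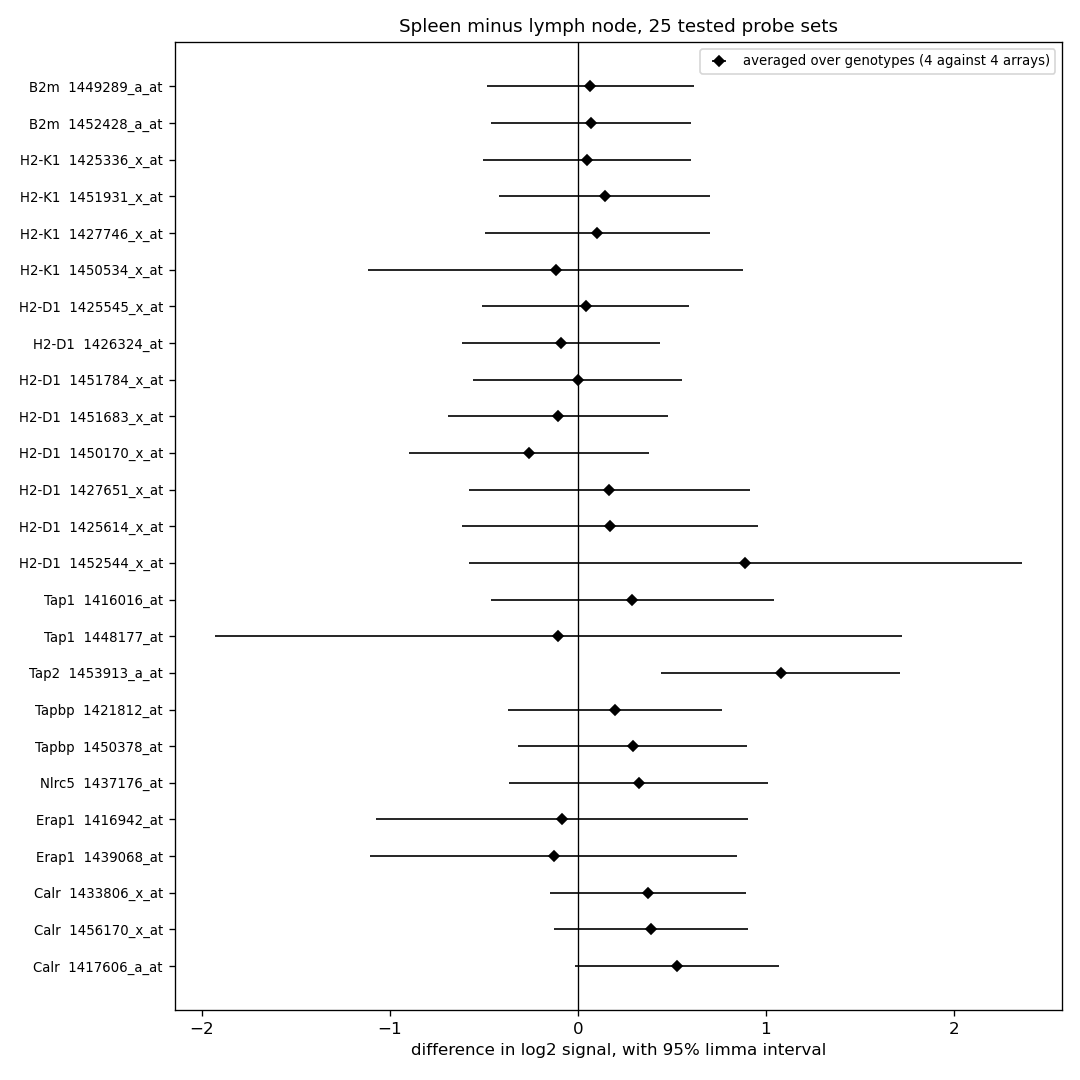
Spleen minus lymph node difference in log2 signal averaged over genotypes (x axis) for each of the 25 tested probe sets (y axis), with 95% limma intervals from 4 against 4 arrays. Tap2 lies farthest above 0 and is the only one whose interval stays clear of 0 before adjustment, and the 3 Calr probe sets lie above 0 with intervals that reach it.

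The A and B arrays of a group often differed, and in the same direction for many of these genes. In lymph node array A was below array B in both genotypes for 18 of the 25 probe sets, against 40.3% of all probe sets tested. In all 4 groups this held for 9 of 25, from B2m, H2-K1, H2-D1, Tap1 and Tapbp, against 12.5%, and in both spleen groups for 10 of 25, against 24.1%. Many of the 25 measure the same gene or can share signal, so these are not counts of independent readings. For Nlrc5 the A minus B difference in log2 signal was -0.42 in knockout spleen and 0.029 in wild-type spleen, and -0.77 in knockout and -0.57 in wild-type lymph node. For Tap1 it was -0.46 and 0.36 in the spleen groups and -0.76 and -0.79 in the lymph node groups, each with knockout ahead of wild-type. Calr did not share this: none of its 3 probe sets was lower on A in both lymph node groups. These are the arrays whose sex-linked transcripts differed, as given above, with a part that was not tested.

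Markers of other cells moved along with these values. The 10 macrophage markers summed to 24783 and 3637 in knockout spleen, against 4726 and 2520.5 in wild-type spleen. They summed to 19699 and 7588 in knockout lymph node, against 9074 and 2515 in wild-type lymph node, so the A array was higher in all 4 groups. None of the 10 lay under the floor on all arrays. On the knockout A arrays C1qb and Csf1r made up most of the sum, and not every marker followed it. Siglec1, Cd68, Mertk and Cd5l were lower on the A array in wild-type spleen. Siglec1 and Adgre1 were higher on both knockout arrays of each tissue than on its wild-type arrays, while each other marker overlapped in at least 1 tissue. Of all probe sets tested, 13.0% in spleen and 14.0% in lymph node were higher in knockout without overlap. Adgre1 had 87.2 and 78.4 in knockout spleen, against 44.7 and 30.2 in wild-type spleen. The 7 dendritic cell markers summed to 12238 and 15363 in knockout spleen, against 17652 and 17926 in wild-type spleen. They summed to 11624 and 15816 in knockout lymph node, against 15037 and 19590.5 in wild-type lymph node, lower on the A array in all 4 groups. That sum rests mostly on Ccr7, a migration receptor, and not every marker of the list followed it. Itgax, the CD11c integrin gene, and Clec10a, a lectin gene, were higher on the A array in all 4 groups. In wild-type spleen Ccr7 had 12751 and 13891, but every other measured marker of the list was higher on the A array. Batf3, for example, had 1069 and 834 there. Itgax had 282 and 212 in knockout spleen, against 124 and 77.2 in wild-type spleen. It had 177 and 98.5 in knockout lymph node, against 269 and 133 in wild-type lymph node. The knockout A arrays had the highest macrophage and the lowest dendritic cell sums of the 8 arrays. Knockout spleen A also stood apart in the summed markers of neutrophils (8862, against 60.1 to 424 on the other 7 arrays), plasma cells (10884, against 502 to 4380.2) and proliferation (7232, against 1254 to 3518). The part of these markers in the class I values was not tested.

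**Figure D4:**
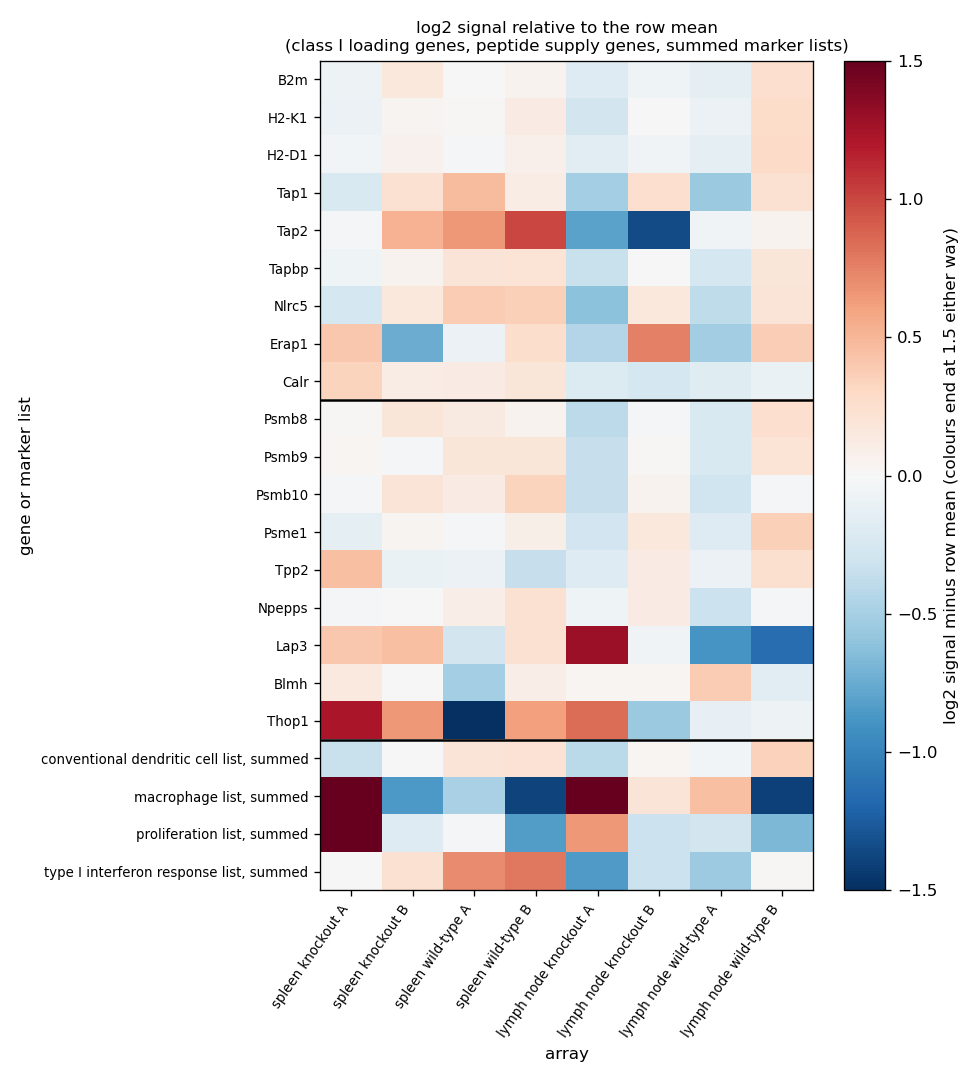
Log2 signal minus the row mean (colour, blue low and red high, colours end at 1.5) on the 8 arrays (x axis) for the 9 class I loading genes, 9 peptide supply genes and 4 summed marker lists (y axis). In lymph node most class I genes and the dendritic cell sum are low on the A arrays, while the macrophage sum is high on both knockout A arrays.

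Other genes of the pathway were followed in lists, each gene by its brightest probe set and listed with results of these data known, and 0 genes of any list passed the limma adjusted test for the averaged difference. Besides Tap2, the only ones at an unadjusted p under 0.05 were Hfe and Rfxank, both lower, and Lap3 and Cd8a, both higher, which is 4 of 48 genes of the other lists, against 7.33% of all genes. Over all 11557 genes so represented the median averaged difference was -0.058, and 56.7% were below 0. For the 9 class I loading genes it was -0.13, with 9 of 9 below 0, though Calr at -0.0079 and Erap1 at -0.015 lay close to 0. The count was 7 of 9 without median scaling, 5 of 9 with quantile normalization and 6 of 9 with both knockout A arrays left out. Of all probe sets tested, 49.5%, 51.9% and 56.0% were below 0 in these settings. Among class I-like molecules 5 of 6 were tested, 4 with averaged differences below 0, and the median was -0.27. Hfe, an iron regulator that pairs with B2m like a heavy chain, had 662 and 1086 in knockout spleen, against 1828 and 2179 in wild-type spleen. It had 362 and 665 in knockout lymph node, against 1181 and 1851 in wild-type lymph node, without overlap in either tissue. Its averaged difference was -1.41 ± 0.33 (limma adjusted p = 0.432). Fcgrt, the IgG transport receptor that also pairs with B2m, differed by 1.33 ± 0.76 (limma adjusted p = 0.761), Mr1 by -0.30 and the lipid presenter Cd1d1 by -0.27.

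Of 18 other heavy chain genes 7 were measured and 3 tested, with averaged differences of 0.59 for H2-T24, -0.74 for H2-Bl and -0.10 for H2-M3, which presents formylated peptides. The list of peptide supply genes had 9 of 11 tested, with 4 below 0 and a median of 0.011. Its immunoproteasome gene Psmb9, the neighbour of Tap1, had 7212 and 6927 in knockout spleen, against 8024 and 8033 in wild-type spleen. It had 5571 and 7155 in knockout lymph node, against 6052 and 8199 in wild-type lymph node, with an averaged difference of -0.17 ± 0.24 (limma adjusted p = 0.926). Lap3, a cytosolic aminopeptidase, had 162 and 168 in knockout spleen, against 101 and 143 in wild-type spleen. It had 297 and 117 in knockout lymph node, against 66.3 and 55.2 in wild-type lymph node, and its averaged difference was 1.04 ± 0.35 (limma adjusted p = 0.606). The peptidase genes Thop1 and Tpp2 differed by 0.91 and 0.14.

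All 10 other loading and folding partners were tested, 4 below 0, with a median of 0.049. The gene of the tapasin relative Tapbpl, a peptide editor, had 1245 and 1899 in knockout spleen, against 2253 and 2111 in wild-type spleen. It had 788 and 1667 in knockout lymph node, against 1233 and 1804 in wild-type lymph node, and an averaged difference of -0.44 ± 0.33 (limma adjusted p = 0.826). The folding enzymes Pdia6 and Pdia4 and the chaperone Hsp90b1 differed by 0.60, 0.30 and 0.15, each with its highest signal on knockout spleen A. The regulators had 19 of 21 tested, 12 below 0, with a median of -0.14. Rfxank, a subunit of the RFX complex that binds class I and class II promoters, had 77.9 and 78.0 in knockout spleen, against 136 and 165 in wild-type spleen. It had 58.3 and 80.8 in knockout lymph node, against 95.7 and 145 in wild-type lymph node, without overlap in either tissue (averaged -0.86 ± 0.26, limma adjusted p = 0.581). Its partner Rfxap differed by -0.58 and the interferon-gamma receptor chains Ifngr2 and Ifngr1 by -0.39 and 0.60. Of the receptors that bind class I, 2 of 8 were tested: Cd8a, the T cell coreceptor also found on dendritic cells, at 1.29 ± 0.45 (limma adjusted p = 0.632), and Pirb, an inhibitory receptor, at 0.17.

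**Figure D5:**
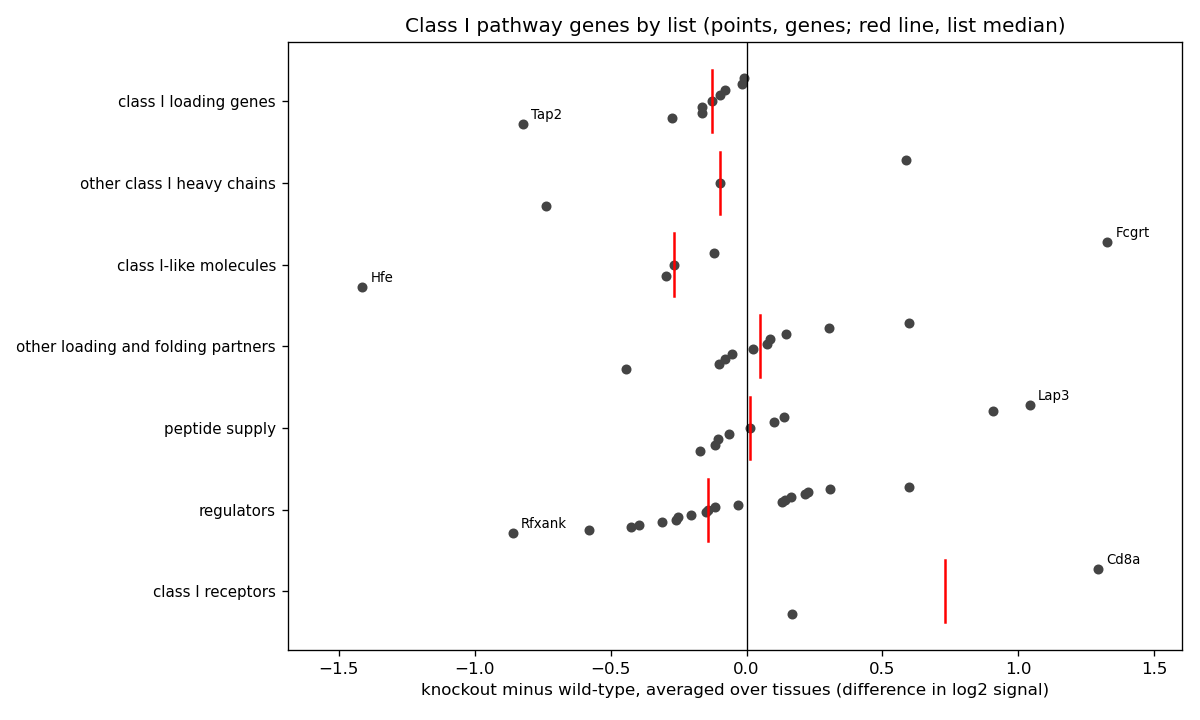
Averaged knockout minus wild-type difference in log2 signal (x axis) of each tested gene of the 7 lists (y axis; points are spread vertically within a list only for legibility), with the list median as a red line. The 9 class I loading genes lie at or below 0 with Tap2 apart, and Hfe and Rfxank are the lowest of their lists.

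The genes whose profiles over the 8 arrays lay closest to that of Tap1 were sought among 11556 others, by the root mean square difference in log2 signal after each profile was centred on its mean. They were Ypel2 (0.12), Nlrc5 (0.12), Kpna4 (0.13), Nup98 (0.13), Kpna3 (0.14), beside an SD of 0.38 for Tap1 itself. Nlrc5 was the second closest once predicted or unnamed transcripts were passed over. For Calr they were Cox6a1 (0.0398), Tmed9 (0.0506), Tfg (0.0817), Spopl (0.0857), Sltm (0.0937), beside an SD of 0.22. Tmed9 is a carrier protein of the early secretory path. Closeness over 8 arrays is a description, and these profiles share the same arrays and scaling.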

How the data were processed

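The authors deposited 1 linear intensity per probe set and array. Its source was MAS5, per the submitters' processing notes, and the version and target value used are not stated there. The 2% trimmed mean of every array was 250.0, so the arrays had been scaled before deposition. The medians of the 8 arrays lay between 53.8 and 65.3, a range of 0.28 on the log2 scale, over the 0.2 allowed, and all arrays were brought to 1 median. Values below the 20th percentile, 9.58, were set to it before log2 was taken. Of 45101 probe sets 64 controls were left out, and 26480 above the pooled median on at least 2 arrays were tested.

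Limma 3.58.1 in R 4.3.3 fitted a mean for each of the 4 groups to all 8 arrays, with 4 residual and 3.05 prior degrees of freedom. Benjamini-Hochberg adjustment ran over all probe sets tested, with 95% intervals. With 2 arrays a group, precision is limited by their number. The genes, lists and tests were chosen with earlier results of these data known. Named besides the 10 genes are up to 4 genes per list with the smallest p for the averaged difference, Aire and cell markers. So are the 5 genes closest in profile to Tap1 and Calr, with predicted or unnamed transcripts passed over. Gene IDs gave a newer name for 0 of the 34945 probe sets with 1 symbol, and listed genes with no matching probe set were left out. No test compared a probe set's signal with that of another. Marker sums add signals of different probe sets, and the words bright and dim describe signal, not RNA amount. The alternatives were no median scaling, quantile normalization, a 40th percentile floor, no floor, no filter, 1 probe set per gene, a trended robust prior, the letter as a replicate block, genotype and letter as a random block, and each array left out; leaving out both knockout A arrays was added after seeing the data.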

Additional observations from a re-analysis of the deposited data

How the results depend on the processing

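No difference of the 9 genes passed the adjusted limma test under any of the 18 alternatives, and Tap2 kept its direction in all of them, at -0.96 to -0.69 for the average (adjusted p = 0.322 to 1). The sign of the small differences depends on the scaling. Without median scaling, the differences that turned sign were, in spleen H2-K1 0.018, H2-D1 0.091, then averaged Erap1 0.059, Calr 0.067, then between tissues B2m -0.029, H2-K1 -0.045, H2-D1 -0.054. With quantile normalization, the differences that turned sign were, in spleen H2-D1 0.065, then in lymph node Tapbp 0.034, Calr 0.014, then averaged B2m 0.022, H2-D1 0.019, Erap1 0.034, Calr 0.11, then between tissues B2m -0.013, H2-K1 -0.00779, H2-D1 -0.00636. With both knockout A arrays left out, an alternative chosen after seeing the data, the differences that turned sign were, in spleen H2-D1 0.034, Calr -0.037, then in lymph node Tapbp 0.046, Nlrc5 0.26, then averaged B2m 0.012, Tap1 0.18, Nlrc5 0.025. With 1 array left out, where the group then holds 1 array that is assumed to vary like the others, the ranges that cross 0 were as follows. In spleen, B2m -0.094 to 0.14, H2-D1 -0.072 to 0.034, Erap1 -0.83 to 0.31, Calr -0.037 to 0.18. In lymph node, B2m -0.37 to 0.00555, H2-D1 -0.39 to 0.038, Tap1 -0.35 to 0.44, Tapbp -0.35 to 0.10, Nlrc5 -0.51 to 0.26, Erap1 -0.37 to 0.82. Averaged, B2m -0.17 to 0.015, H2-D1 -0.21 to 0.00984, Tap1 -0.32 to 0.071, Erap1 -0.31 to 0.28, Calr -0.063 to 0.047. Between tissues, B2m -0.027 to 0.16, H2-K1 -0.041 to 0.14, H2-D1 -0.065 to 0.15, Erap1 -0.38 to 0.22.

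The count of all probe sets called was 2 in spleen, 3 in lymph node, 3 for the average, 0 for the difference between tissues in the effect (944 at an unadjusted p under 0.05) and 0 for spleen minus lymph node (2540 at an unadjusted p under 0.05). With 1 probe set per gene it was 0 in spleen, lymph node and the average, with fewer features tested. With a trended robust prior it was 4 in spleen, 11 for the average and 65 between tissues. For the average it was 5 with no floor and 5 with a 40th percentile floor. With both knockout A arrays left out it was 0 in spleen and 0 in lymph node. With 1 array left out it ranged from 1 to 3 in lymph node (1 without knockout A and 1 without knockout B), from 2 to 7 for the average (7 without knockout spleen B) and from 0 to 2 between tissues (2 without wild-type spleen B); the cause was not tested. The labels do not say whether arrays of 1 letter share more than the letter. The correlation of A minus B differences between groups ran from 0.046 to 0.29 over 6 pairs of groups. The highest was that of knockout spleen with knockout lymph node. Across genotypes, knockout with wild-type lymph node had 0.23, while wild-type spleen with wild-type lymph node had 0.068. Within a genotype, spleen and lymph node arrays of 1 letter had like Xist and Eif2s3y signals, which ties them as a hint from the data, not from the labels. With the letter as a replicate block the averaged Tap2 difference was -0.82 (adjusted p = 0.466) and the counts were 2, 3, 3, 0 and 0. With genotype and letter as a random block, which allows for that tie, its adjusted p was 0.865 for the average and 0.208 between tissues. Signal near the floor limits the dim probe sets of Tap1 and H2-D1.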

Other observations

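Class I genes are raised by interferons, so the summed signals of 2 interferon response lists are given beside them, as values without a test. The 9 measured type I genes summed to 6982 and 8207 in knockout spleen, against 11461 and 12125 in wild-type spleen. They summed to 3905 and 5597 in knockout lymph node, against 4811 and 7097 in wild-type lymph node. Rsad2 and Mx1, antiviral genes, make up most of these sums, and they and the genes named next were chosen after their values were seen. Rsad2 had 4033 and 4632 in knockout spleen, against 6901 and 7141 in wild-type spleen, and 1319.8 and 2617 in knockout lymph node, against 1853 and 3711 in wild-type lymph node. Mx1 had 1204 and 1775 in knockout spleen, against 3340.0 and 3160.3 in wild-type spleen, and 727 and 1368 in knockout lymph node, against 1690.0 and 2273 in wild-type lymph node. Irf7, Oasl1, Oasl2 and Rtp4 of the same list had the opposite order, higher on the knockout than on the wild-type arrays of each tissue without overlap. Of all probe sets tested, 13.0% were higher in knockout without overlap in spleen and 14.0% in lymph node. The share higher in both tissues at once was not counted. Irf7 had 118 and 66.6 in knockout spleen, against 6.43 and 28.8 in wild-type spleen, and 172 and 102 in knockout lymph node, against 67.4 and 37.6 in wild-type lymph node. The 9 interferon-gamma response genes summed to 10192 and 7812 in knockout spleen, against 8084 and 8074 in wild-type spleen. They summed to 8622 and 10587 in knockout lymph node, against 7093 and 9878 in wild-type lymph node. Within this list Gbp6, Iigp1 and Igtp, picked after their values were seen, were higher on the knockout arrays of each tissue without overlap. The shares of all probe sets given for the type I list apply here too. Igtp had 726 and 451 in knockout spleen, against 186 and 179 in wild-type spleen, and 495 and 484 in knockout lymph node, against 278 and 206 in wild-type lymph node. Irf1 and Gbp3, bright genes of the list, were lower in knockout spleen without overlap and overlapped in lymph node. Of all probe sets tested, 23.5% were lower in knockout spleen without overlap.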
